A study of Bombus terrestris audax with 20 samples.

Results

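The members described here are 2464 unannotated transcripts on unplaced scaffolds of the bumblebee genome assembly Bter_1.0, which are 16.6% of the 14817 features in the deposited expression table. They were taken by their identifiers alone: each begins with uNW_, followed by the scaffold, the first base and the last base, so that uNW_003570172.1_1_551 is bases 1 to 551 of scaffold NW_003570172.1. No measured value entered this choice, but the authors had assembled the unannotated transcripts from the reads of this study. They also describe a filter that removed features, annotated or not, with low mean read counts or repeated zeros. The 2464 members lay on 1298 scaffolds and were set against 1245 annotated features on 296 unplaced scaffolds, whose identifiers begin with NW_.

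The table held mRNA-seq libraries of whole female larvae of Bombus terrestris audax at 3 instar stages and of 2 castes, each library being made from pooled larvae of 1 colony. Queen-destined larvae were early-instar (EQ), mid-instar (MQ) and late-instar (LQ), and were reared in queenless colonies, that is, colonies without their queen. Worker-destined larvae were early-instar (EW), mid-instar (MW) and late-instar (LW), and were reared in queenright colonies, which kept their queen. MW had 2 libraries and the other 5 phenotypes 3 each, from 4 queenless and 3 queenright colonies, so that caste and the presence of the colony queen cannot be told apart. Caste in these larvae was thus set by the rearing colony and not by any genetic change or drug, and the larvae were pooled, so that differences between single larvae were not measured. Queen-destined libraries with the same number came from the same colony, as did worker-destined libraries with the same number. The replicates were therefore separate colonies within a phenotype, but the same colonies returned at later stages. Values are normalised abundances: read matches per feature that the authors scaled by length and then quantile-normalised, so that they carry no read depth and no counting error can be given.

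Unplaced scaffolds are stretches of assembled sequence that could not be assigned to a chromosome, and in insect assemblies they are often short and rich in repeats such as mobile elements and ribosomal RNA genes. A transcript assembled outside the gene annotation can be an exon missed by the annotation, a long non-coding RNA, a transcribed repeat or a fragment of ribosomal RNA. Mobile elements are sequences that copy themselves within a genome through their own reverse transcriptase or transposase, and their RNA is commonly kept low in animals by small RNA pathways. In bumblebees female eggs can develop as queens or workers, and the path taken depends on the social environment of the larva.

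The members were short. Their lengths ran between 200 and 9089 bp with a median of 421 bp, against a median of 3205 bp for the annotated features on unplaced scaffolds. These lengths run between the first and the last base. An annotated feature, the longest of them 550779 bp, can thus include introns, whereas members were joined from overlapping reads. On 946 scaffolds there was a lone member, whereas 29 scaffolds carried at least 10 members each, 646 in all, and NW_003565443.1 carried the most with 75. Only 749 members (30.4%) shared a scaffold with an annotated feature, at a median distance of 7274 bp, and 114 of them lay within 810 bp of it, the distance used below for neighbours. The other 1715 members lay on 1204 scaffolds without any annotated feature in the table. For 459 members (18.6%) the first base was within the first 5 bases of the scaffold. Of 1166 pairs of neighbouring members, the 650 pairs within 810 bp had a median Spearman rho of 0.54 over the 17 libraries, and the 516 pairs farther apart had a median of 0.15. These correlations describe levels in shared libraries, and close neighbours may be pieces of 1 transcript.

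Per length, and among features that passed the authors' filter, the median member was at least as abundant as the median annotated feature. The lengths are unlike, since annotated features can include introns. Whether the authors' scaling counted introns cannot be read from these values, so the levels of the 2 kinds may not compare. The median of the mean abundance was 168 over members, 123 over annotated features on unplaced scaffolds, 82.9 over unannotated transcripts on chromosomes and 124 over annotated features on chromosomes. Among the 100 most abundant features of the table, 16 were members and 15 were annotated features on unplaced scaffolds. Listed zeros were few after that filter: 79 members (3.21%) were at 0 in at least 1 library, against 9 annotated features on unplaced scaffolds (0.723%). The members also varied more between libraries of 1 phenotype than annotated features did. Their SD within phenotypes, on the scale of log2(abundance + 20), had a median of 0.31, against 0.16 for annotated features on unplaced scaffolds. It was over 1 for 40 members (1.62%) against 12 annotated features (0.964%). Unannotated transcripts on chromosomes, with a median SD of 0.25, came nearer to the members. The whole-larva source was met by high levels of the digestive enzymes chymotrypsin-1-like (18678 to 65327) and trypsin 3A1-like (20611 to 62678), with chymotrypsin-2-like at 302 to 8626, and by hexamerin, a larval storage protein (1114 to 11398), while the muscle genes were uneven, with troponin C at 729 to 2010, titin at 70.7 to 228 and troponin T, skeletal muscle-like, at 4.11 to 10.3. Cuticle protein 2-like was listed between 0 and 14.6. In such bulk samples fewer cells of a type and less RNA per cell cannot be told apart.

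The libraries did not carry equal amounts of these transcripts. The members' share of the summed abundance was 33.5% in EQ1, 18.1% in EQ2 and 18.4% in EQ3, and 31.6% in EW1, 32.2% in EW2 and 16.5% in EW3. Among mid libraries it was 31.3% in MQ1, 19.0% in MQ2 and 32.5% in MQ4, and 16.1% in MW2 and 14.8% in MW3. Among late libraries it was 20.7% in LQ1, 12.5% in LQ2 and 18.5% in LQ4, and 21.6% in LW1, 11.8% in LW2 and 17.1% in LW3. The shares of the castes overlapped at the early and the late stage. At the mid stage every MQ library lay above both MW libraries that remained after the authors left out MW1, with MQ2 the nearest to them. Most of the spread came from the few most abundant members: without the 10 members with the highest mean abundance the shares were 15.0% ± 0.565 in EQ, 14.5% ± 0.822 in EW, 12.7% ± 0.804 in MQ, 11.0% ± 1.02 in LQ and 10.6% ± 1.59 in LW (SD, n = 3 each), and 12.6% ± 0.218 in MW (SD, n = 2).

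**Figure D1:**
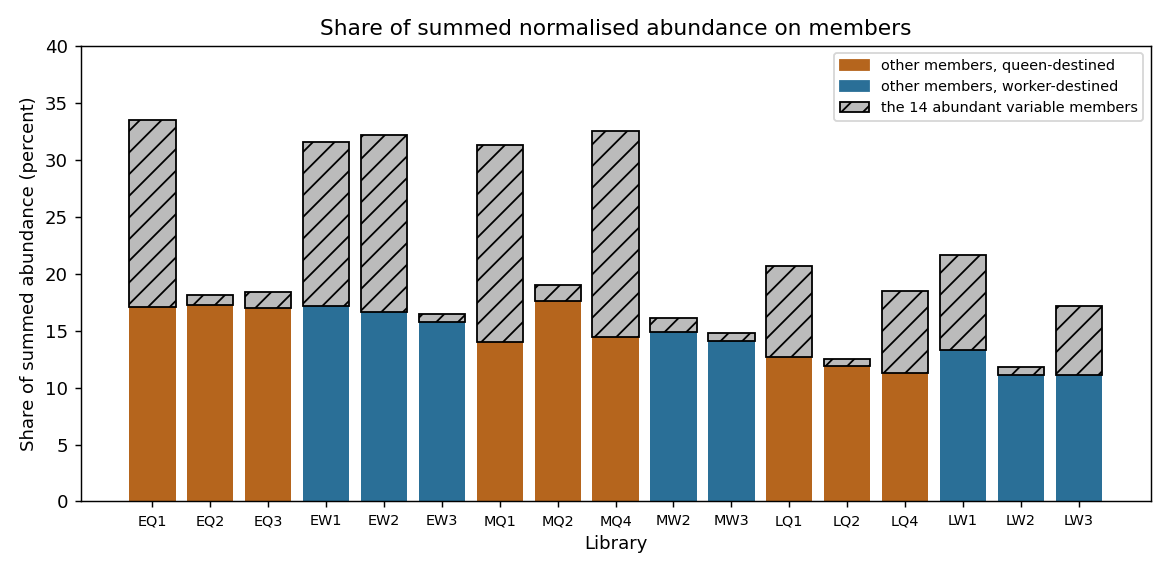
Share of the summed normalised abundance of each library (percent, vertical axis) that fell on members, for each of 17 libraries (horizontal axis), with the 14 abundant members that varied within a phenotype hatched and the other members plain. The hatched part was 16.4% in EQ1 and 0.852% in EQ2, so EQ1 stood apart from EQ2 mainly in it, whereas in MW it was 1.24% and 0.742%.

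Of the members, 14 were both very abundant and uneven between libraries of 1 phenotype, by a rule of at least 10000 in the highest library and a ratio of at least 8 between the highest and lowest library of a phenotype. The same rule took 3 annotated features on unplaced scaffolds, 1 unannotated transcript on a chromosome and 24 annotated features on chromosomes. Since the rule uses these values, they are given as a description with no test. The 14 lay on 12 scaffolds, none of which carried an annotated feature. They were 229 to 953 bp long, and 8 of them began within the first 9 bases of their scaffold. Their largest ratios within a phenotype ran between 12.4 and 251. Among the 30 members with at least 10000 in a library, the lowest ratio inside the rule was 12.4, for uNW_003570172.1_1_551, and the highest outside it was 4.77, for uNW_003567158.1_126_499. Among the members with a ratio of at least 8, the highest library was at 12865 in uNW_003568427.1_1_421, the lowest inside, and at 3939 in uNW_003566133.1_1_1606, the highest outside.

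The member with the largest ratio was uNW_003568514.1_236_572, which begins 6 bp after uNW_003568514.1_1_229. uNW_003568514.1_1_229 was at 209819, 1912 and 1284 in EQ1, EQ2 and EQ3, and at 209819, 209819 and 1259 in EW1, EW2 and EW3. At the mid stage uNW_003568514.1_1_229 was at 192525, 3932 and 226105 in MQ1, MQ2 and MQ4, and at 1384 and 1356 in MW2 and MW3. In late larvae it was at 110353, 1898 and 110353 in LQ1, LQ2 and LQ4, and at 136799.9, 999.5 and 104466 in LW1, LW2 and LW3. Each library was thus at 104466 or more or at 3932 or less, and both states occurred in EQ, EW, MQ, LQ and LW. The repeated values, such as 209819, are those that quantile normalisation assigns to a given rank. The ratio of uNW_003568514.1_1_229 to its neighbour stayed between 0.666 in EW2 and 1.53 in EW1, so both members moved together.

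The same 9 libraries were high in 12 of the 14 members: EQ1, EW1, EW2, MQ1, MQ4, LQ1, LQ4, LW1 and LW3 lay above the widest gap between neighbouring values. The low libraries were EQ2, EQ3, EW3, MQ2, MW2, MW3, LQ2 and LW2. In uNW_003569363.1_1_953 only EQ1, EW1, EW2, MQ1 and MQ4 lay above the gap, and in uNW_003570172.1_1_551 only EQ1, EW1, MQ1 and MQ4. In the wider set, 38 members (1.54%) had these 9 libraries as their 9 highest, against 2 annotated features on unplaced scaffolds (0.161%) and 140 of all 14817 features (0.945%). Where the lowest of the 9 was at least 2 times the highest of the rest, 17 of 20 features were members, and at 8 times all 5 were members. The pattern was read from the 14 members chosen above, which are 12 of the 17 and 4 of the 5, so these counts are a description. The 3 annotated features taken by the abundance rule, NW_003565426.1_918418_918958, NW_003566535.1_509872_510942 and NW_003566591.1_148357_151275, had other libraries high, namely all early libraries, MQ1 and both MW libraries, with LW1 added for the last of them.

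The high libraries followed colony in queen-destined larvae. Libraries numbered 1 (EQ1, MQ1 and LQ1) and 4 (MQ4 and LQ4) were high at every stage, and those numbered 2 (EQ2, MQ2 and LQ2) were low at every stage. They did not follow colony in worker-destined larvae, where EW2 was high and MW2 and LW2 were low, and where EW3 and MW3 were low and LW3 was high. Over the 14 members, the ratio of the highest to the lowest library had a median of 27.7 in EQ, 34.7 in EW, 14.9 in MQ, 21.7 in LQ and 26.2 in LW. In MW the median was 1.37, and the ratios there ran between 1.02 and 2.71. MW here is MW2 and MW3 only, since the authors left out MW1, which clustered poorly with its replicates. Whether MW1 was high, as EW1 and LW1 were, cannot be read from these values.

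**Figure D2:**
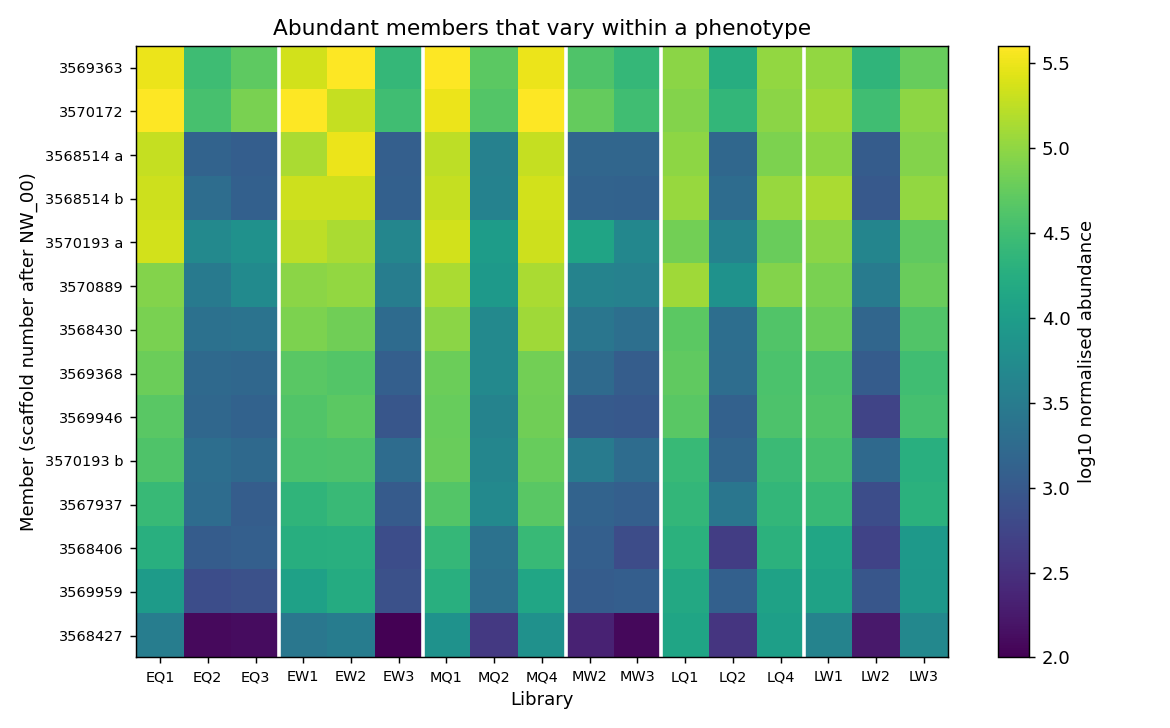
Normalised abundance (colour, log scale) of the 14 abundant members that varied within a phenotype (vertical axis) in each of the 17 libraries (horizontal axis), with a and b marking members of the same scaffold. EQ1, EW1, EW2, MQ1, MQ4, LQ1, LQ4, LW1 and LW3 stand out as high columns, and both MW libraries are low.

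The ratio between neighbours moved less in some pairs than in others. uNW_003570193.1_9_248 was between 2.10 times (LQ4) and 5.49 times (EQ1) its neighbour uNW_003570193.1_379_610. By contrast uNW_003570889.1_356_696 was at 85943, 3003 and 5230.1 in EQ1, EQ2 and EQ3, while uNW_003570889.1_1_297, which ends 58 bp before it, was at 175329, 75308 and 67489.8. The ratio of uNW_003570889.1_356_696 to uNW_003570889.1_1_297 ran between 0.040 in EQ2 and 0.881 in LQ4, so that the first member of this scaffold was high in every library and the second in some only. Likewise uNW_003567937.1_449_775 was 13.6 times (LW2) to 152 times (LW1) as abundant as uNW_003567937.1_2_424. uNW_003567937.1_449_775 was at 43341, 4938 and 47519 in MQ1, MQ2 and MQ4 and at 1379 and 1248 in MW2 and MW3.

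The remaining members of this set repeated the pattern at other levels. uNW_003568430.1_1_680 was at 92752, 5006 and 120345 in MQ1, MQ2 and MQ4, against 2570.1 and 2096 in MW2 and MW3. uNW_003569368.1_70_910 was at 62678, 4920.0 and 67489.8 in the MQ libraries, against 1750.1 and 1164 in the MW libraries. uNW_003569946.1_6_673 was at 57387, 4070.3 and 65327 in the MQ libraries, against 1054 and 965 in the MW libraries. In each of these 3 members MQ2 lay nearer to the MW libraries than to MQ1 and MQ4, although it stayed above MW. uNW_003568406.1_1_645 was at 25211, 2304 and 26959 in the MQ libraries, against 1221 and 697 in the MW libraries. uNW_003569363.1_1_953 was at 390971, 49992 and 314915 in the MQ libraries, against 41224 and 24661 in the MW libraries, and uNW_003570172.1_1_551 was at 314915, 43341 and 390971 in the MQ libraries, against 55520.5 and 31631 in the MW libraries. In uNW_003570172.1_1_551 the castes overlapped, since MQ2 was below MW2.

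Because of this spread none of the 14 members passed the limma test in any of the 3 caste comparisons or the 4 comparisons of stages, and the lowest adjusted p was 0.2. Mean log2 differences at the mid stage were still large, with 5.32 (SE 3.02, adjusted p = 0.298) for uNW_003568514.1_1_229 and 4.03 (SE 1.86, adjusted p = 0.2) for uNW_003567937.1_449_775. Abundance alone did not go with this unevenness. uNW_003567957.1_1_554 was at 104466, 92752 and 97539 in EQ and at 110353, 85943 and 97539 in EW, and uNW_003569515.1_1_492 was at 78396, 104466 and 85943 in EQ and at 97539, 71506 and 67489.8 in EW. Both were steady at the early stage, and MQ2 was their highest library at the mid stage, with 209819 for uNW_003567957.1_1_554 and 226105 for uNW_003569515.1_1_492.

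The same libraries bear on the other members. The median abundance over all members was 159.7, 189.7 and 179 in EQ1, EQ2 and EQ3, and 163, 145 and 178 in EW1, EW2 and EW3. It was 143, 165 and 150.3 in MQ1, MQ2 and MQ4, and 179 and 177 in MW2 and MW3. In the late libraries it was 131, 148 and 131 in LQ1, LQ2 and LQ4, and 165, 152 and 137 in LW1, LW2 and LW3. In EQ, EW, MQ and LQ the library with the highest median was one in which the abundant uneven members were low, and in LW it was LW1, in which they were high. The part of this in the differences below was not tested, except where a library was left out of the fit.

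At the early stage the castes could hardly be told apart in these transcripts. By limma, with adjustment by Benjamini and Hochberg over all 14817 features, no member was higher in EQ (0% of all features) and 1 was higher in EW (0.00675% of all features). At an unadjusted p under 0.05, 136 members (5.52%) were higher in EQ and 39 (1.58%) in EW, against 2.47% and 2.85% of all features. The median log2 difference was 0.10 over members, -0.04 over annotated features on unplaced scaffolds and -0.02 over all features. Ranges that did not overlap were found for 224 members higher in EQ (5.51% of all features) and 69 higher in EW (9.02% of all features), which are 9.09% and 2.80% of the members.

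The member called was uNW_003566014.1_7728_8658. It was at 2.00, 2.30 and 1.77 in EQ, against 19.3, 15.3 and 16.0 in EW. Among mid larvae it was at 1.95, 0 and 1.21 in MQ, against 17.6 and 25.8 in MW, and at the late stage at 0, 0 and 5.47 in LQ, against 7.52, 10.1 and 9.62 in LW. The castes did not overlap at any stage, and every worker-destined library lay above every queen-destined one. The levels were low next to the offset of 20, so log2 differences understate the change. They were -0.74 (SE 0.09, adjusted p = 0.0275) at the early, -0.98 (SE 0.10, adjusted p = 0.000378) at the mid and -0.42 (SE 0.09, adjusted p = 0.0215) at the late stage. With an offset of 1 the early call was lost (adjusted p = 0.596), and the 1 member called there was another, higher in EQ. It was also lost without the intensity trend (adjusted p = 0.0514), with replicate number as a block (adjusted p = 0.06) and with only the early libraries (adjusted p = 0.0578). The early call was lost without any EQ or EW library, MQ1, MQ4, LW2 or LW3 (largest adjusted p 0.229), the late call without LQ1, LQ2 or LW2, and the mid call was kept in all 17 such fits.

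The other early members with the smallest p did not pass the test. uNW_003570046.1_631_1124 was at 93.1, 120.4 and 64.5 in EQ, against 31.0, 23.3 and 25.9 in EW, a log2 difference of 1.24 (SE 0.18, adjusted p = 0.0582). It was also higher in queen-destined larvae at the mid stage, with 67.9, 113 and 81.8 in MQ against 29.9 and 24.5 in MW (log2 1.17, SE 0.20, adjusted p = 0.00604). In late larvae it was at 72.7, 53.7 and 67.7 in LQ, against 37.8, 37.3 and 29.6 in LW (adjusted p = 0.0681), so the ranges were apart at each stage. The mid call was lost without MW3 (adjusted p = 0.069). uNW_003566209.1_1846_2773 was at 8.30, 7.10 and 6.51 in EQ, against 38.7, 25.2 and 28.8 in EW (adjusted p = 0.222).

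The mid stage held the most caste differences, and they leaned to worker-destined larvae. By limma 56 members were higher in MQ (2.27% of members, against 4.72% of all features) and 187 were higher in MW (7.59% of members, against 3.31% of all features), 243 together, where 8.04% of all features were called. Among the annotated features on unplaced scaffolds 69 were higher in MQ and 43 in MW. Unannotated transcripts on chromosomes leaned as the members did, but less, with 64 higher in MQ and 87 in MW. The median log2 difference was -0.14 over members, 0.07 over annotated features on unplaced scaffolds and 0.04 over all features. The 187 members lay on 128 scaffolds, with 10 each on NW_003565443.1, which carries 75 members, and NW_003566109.1, which carries 26, and with all 4 members of NW_003566069.1. Leaving out a library moved the count of 243 to 35 without MW2, 44 without MW3, 90 without MQ4, 121 without MQ1 and 348 without MQ2. Fitted on the mid libraries alone it was 13, all of them higher in MW, and among the mid calls given below only those of uNW_003566082.1_14813_15171, uNW_003566109.1_182735_182941, uNW_003566392.1_117210_118602, uNW_003566532.1_6054_6308 and uNW_003570323.1_319_600 passed in that fit.

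The largest mid difference among the members singled out by the smallest p was in uNW_003566082.1_14813_15171, which lies 13193 bp from the nearest annotated feature. It was at 1.83, 1.75 and 0 in MQ, against 231 and 155 in MW (log2 -3.31, SE 0.38, adjusted p = 0.000442). At the early stage it was at 1.44, 4.72 and 1.24 in EQ and at 12.4, 6.59 and 1.47 in EW, and at the late stage at 15.3, 14.5 and 12.3 in LQ, against 275, 60.6 and 86.1 in LW. It was thus near 0 in both castes when early, and the castes were fully apart at the mid and late stages, where the late difference passed the test too (log2 -2.0, SE 0.34, adjusted p = 0.00602).

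uNW_003566109.1_182735_182941 differed more on average, with 3.99, 0 and 0 in MQ against 446 and 245 in MW, a log2 difference of -4.05 (SE 0.56, adjusted p = 0.00184). uNW_003566532.1_6054_6308 was at 7.35, 2.68 and 3.51 in MQ, against 329 and 237 in MW (log2 -3.61, SE 0.59, adjusted p = 0.00482). This call was lost without MW2 (adjusted p = 0.0514). It was listed at 0 in every EQ library and at 18.4, 12.4 and 14.6 in EW. Both members were high in LW1 and much lower in the other LW libraries, at 290.1, 37.7 and 90.2 for uNW_003566109.1_182735_182941 and at 359, 42.0 and 28.0 for uNW_003566532.1_6054_6308.

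uNW_003570323.1_319_600 was at 6.88, 2.69 and 3.41 in MQ, against 91.9 and 92.5 in MW, a log2 difference of -2.21 (SE 0.25, adjusted p = 0.000439). All 3 LQ libraries listed 0 and the LW libraries were at 20.4, 6.34 and 7.25, so worker-destined larvae were higher there too, without passing the test (adjusted p = 0.136). uNW_003566392.1_117210_118602, 5815 bp from an annotated feature, was at 0.148, 3.46 and 0.254 in MQ, against 30.6 and 35.2 in MW (log2 -1.32, SE 0.15, adjusted p = 0.00043). Outside MW it reached its highest value in LW1 with 16.0, and the early libraries were listed between 0 and 3.04. NW_003566392.1 carried 6 of the 187 members among its 17.

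On 2 scaffolds a pair of members higher in MW was described by the study as a joined feature. Pairs that the study joined in MQ are given further below. uNW_003566484.1_500_835 was at 255, 282 and 259 in MQ, against 742 and 594 in MW (log2 -1.26, SE 0.17, adjusted p = 0.0015), and uNW_003566484.1_956_1360 was at 148, 125 and 99.4 in MQ, against 583 and 428 in MW (log2 -1.87, SE 0.36, adjusted p = 0.0102). At the late stage they parted: uNW_003566484.1_500_835 was at 528, 589 and 717 in LQ and 869, 719.8 and 611 in LW, whereas uNW_003566484.1_956_1360 was at 133, 106 and 95.3 in LQ and 409, 131 and 135 in LW. The high late value of the second was in LW1. uNW_003566430.1_1342_1550 was at 128, 135 and 98.6 in MQ, against 454 and 328 in MW (log2 -1.54, SE 0.33, adjusted p = 0.0155). uNW_003566430.1_1560_1882, 10 bases further, was at 14.9, 25.1 and 27.6 in MQ, against 131 and 94.5 in MW (log2 -1.64, SE 0.34, adjusted p = 0.0128). Without MW2 or MW3 the calls of uNW_003566484.1_956_1360, uNW_003566430.1_1560_1882 and uNW_003566430.1_1342_1550 were lost (largest adjusted p 0.157), the last also without MQ4, and that of uNW_003566484.1_500_835 was kept in all 17 such fits.

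The members higher in MQ were fewer and mostly of moderate size. uNW_003565777.1_231_968 was at 233, 113 and 216 in MQ, against 17.6 and 20.1 in MW, a log2 difference of 2.36 (SE 0.35, adjusted p = 0.00268). At the early stage it was at 100.2, 168 and 101 in EQ and at 102, 59.4 and 42.8 in EW, and at the late stage at 17.0, 4.30 and 12.4 in LQ and at 35.7, 24.3 and 9.48 in LW. The MQ libraries thus lay in or above the range of EQ, and the MW libraries lay below all EW libraries. uNW_003567127.1_3_1246 was at 919, 746 and 1017 in MQ, against 428 and 442 in MW (log2 1.00, SE 0.16, adjusted p = 0.00493). In LQ it was at 944, 966 and 1098 and in LW at 897, 958 and 1099, so the castes overlapped again later. uNW_003568024.1_1_1630 was at 174, 207 and 202 in MQ, against 82.4 and 76.3 in MW (log2 1.11, SE 0.19, adjusted p = 0.00568). uNW_003565404.1_235648_235942, 1162 bp from an annotated feature, was at 418, 410.2 and 426 in MQ, against 231 and 235 in MW (log2 0.79, SE 0.14, adjusted p = 0.00577). It was also higher in LQ, at 415, 475 and 468, against 322, 342 and 286 in LW (log2 0.49, SE 0.12, adjusted p = 0.0369). uNW_003565543.1_13688_14254 was at 875, 984 and 946 in MQ, against 548 and 583 in MW (log2 0.71, SE 0.11, adjusted p = 0.00316). Of these mid calls, that of uNW_003568024.1_1_1630 was lost without MW3 and that of uNW_003565404.1_235648_235942 without MW2 or MW3. The late call of uNW_003565404.1_235648_235942 was lost without EW2, MW2, MW3 or any late library (largest adjusted p 0.102).

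By ranges the mid stage differed in more members than by limma. There were 350 members above in every MQ library (25.1% of all features) and 817 above in every MW library (17.4% of all features), which are 14.2% and 33.2% of the members. All 243 members called by limma were among them. Ranges part more easily with fewer libraries, and MW had 2, so these counts are not set against those of the other stages. The offset fold change of the study is the log2 ratio, after adding 20, of the lowest library of the higher phenotype to the highest library of the lower one. It passed 1 for 10 members in MQ (0.391% of all features) and 44 in MW (0.634% of all features), 54 together (1.03% of all features), and limma called 2 and 43 of these. That count of 54 was 176 without MQ2, 138 without MW2 and 119 without MW3. The MQ members past 1 that limma did not call were both members of NW_003567937.1, NW_003568514.1 and NW_003570889.1, uNW_003569368.1_70_910 and uNW_003569946.1_6_673. These are abundant uneven members described above or their neighbours on the same scaffold. The study joined each of these scaffold pairs into a feature higher in MQ. The median values of the 187 members higher in MW were 152, 226 and 156 in MQ1, MQ2 and MQ4, against 520 and 417 in MW2 and MW3. MQ2 had the highest median of the MQ libraries here, although the abundant uneven members were low in it as in MW, and in each of the 187 members it still lay below both MW libraries.

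The early and the late comparison share no libraries with the mid one, although they share colonies. Of the 187 members higher in MW, 165 (88.2%) were also on the worker side at the late stage, where 58% of all members were, with a median log2 difference of -0.49. At the early stage 43 (23%) were on the worker side, against 35.9% of all members, with a median of 0.20. Among the LW libraries LW1 was the highest in 131 (70.1%) of the 187, and the medians were 450.4, 327 and 296 in LW1, LW2 and LW3, against 227, 271 and 243 in LQ1, LQ2 and LQ4. Of the 56 members higher in MQ, 50 were on the queen side at the early and 45 at the late stage, against 64.1% and 42% of all members. Called at both stages in the same direction were 11 members higher in MW and LW, which are 5.88% of the 187 and 37.9% of the 29 members higher in LW, and 5 members higher in MQ and LQ, which are 8.93% of the 56 and 11.4% of the 44 members higher in LQ.

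**Figure D3:**
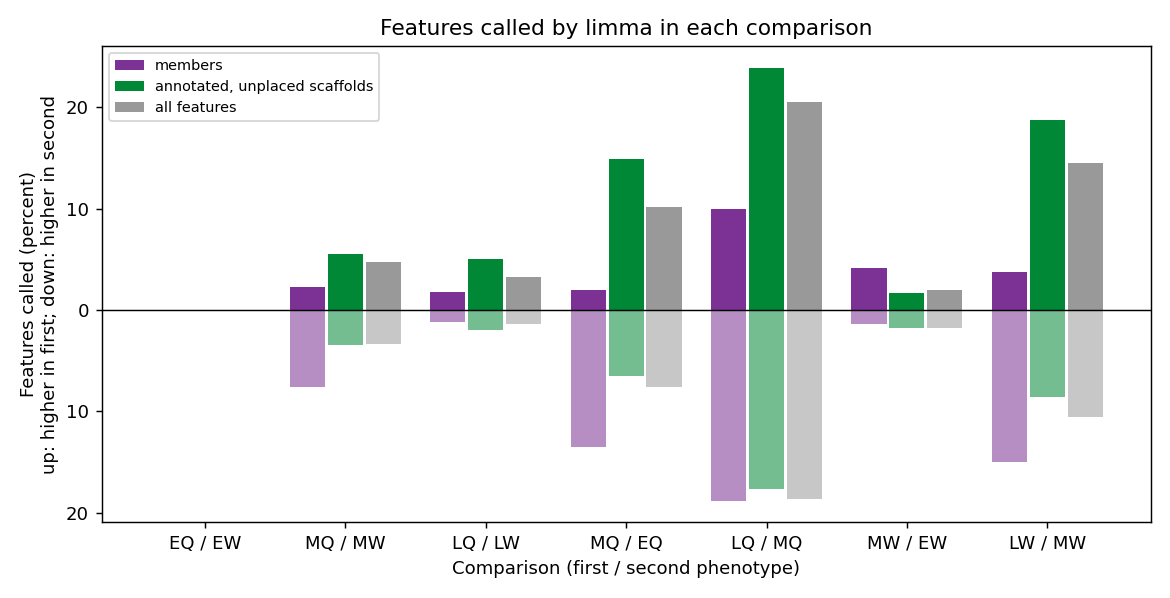
Percent of features called by limma (vertical axis) in each comparison (horizontal axis) for members, annotated features on unplaced scaffolds and all features, with features higher in the first-named phenotype drawn upward and those higher in the second downward. At the mid stage 7.59% of members were higher in MW and 2.27% in MQ.

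At the late stage the members called were fewer and more even. There were 44 higher in LQ (3.21% of all features) and 29 higher in LW (1.34% of all features), which are 1.79% and 1.18% of the members and together 73 (4.55% of all features). Among annotated features on unplaced scaffolds 62 were higher in LQ and 25 in LW, and among unannotated transcripts on chromosomes 50 and 35. The median log2 difference was -0.07 over members, 0.04 over annotated features on unplaced scaffolds and 0.02 over all features. The count of 73 was 27 without LQ1, 43 without LW2, 48 without LQ4 and 114 without LQ2, and 5 when only the late libraries were fitted. Of the late calls given here, those of uNW_003565415.1_68987_69283, uNW_003565415.1_73539_74047, uNW_003566045.1_104220_104817 and uNW_003566176.1_376388_378257 passed in that fit. By ranges 176 members were higher in LQ (13.3% of all features) and 241 in LW (9.66% of all features). The offset fold change passed 1 for 3 members in LQ (0.27% of all features) and 6 in LW (0.0945% of all features), and limma called all 9. Without LQ2 there were 27 and without LQ4 there were 22.

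The late member with the smallest p was uNW_003566176.1_376388_378257, 6031 bp from an annotated feature. It was at 29.6, 27.8 and 37.0 in LQ, against 7.60, 6.30 and 2.70 in LW, a log2 difference of 1.01 (SE 0.07, adjusted p = 1.67e-05). In all 11 early and mid libraries it was between 5.66 and 10.5, so LQ stood apart from every other phenotype. uNW_003565656.1_908_1913 was similar, at 51.1, 84.6 and 66.1 in LQ against 5.62, 4.94 and 20.2 in LW (log2 1.55, SE 0.17, adjusted p = 0.00033), and at most 11.0 in the early and mid libraries. uNW_003570215.1_3_519 was at 83.6, 73.0 and 110.3 in LQ, against 18.6, 33.1 and 30.9 in LW (log2 1.20, SE 0.19, adjusted p = 0.00391), and uNW_003565959.1_5327_6884 was at 21.3, 20.4 and 35.1 in LQ, against 8.75, 6.36 and 5.26 in LW (log2 0.75, SE 0.13, adjusted p = 0.0059). None of these 4 calls was lost when a library was left out.

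uNW_003568489.1_1_1068 combined a caste difference with a change over development. It was at 77.1, 46.5 and 34.4 in EQ, at 198, 311 and 389 in MQ and at 909, 1432 and 1617 in LQ. In worker-destined larvae it was at 27.1, 27.8 and 45.4 in EW, 73.7 and 93.6 in MW and 237, 358 and 339 in LW. The castes overlapped at the early stage and were apart at the mid (log2 1.58, SE 0.31, adjusted p = 0.0111) and late stage (log2 2.00, SE 0.28, adjusted p = 0.00156). LW levels were close to those of MQ. The mid call was lost without MW2 or MW3 (largest adjusted p 0.11), and the late call in none of the 17 fits.

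The members highest over LQ in LW were a group with a common course. uNW_003565415.1_68987_69283 was at 0, 0 and 8.15 in LQ, against 157, 274 and 341 in LW, a log2 difference of -3.57 (SE 0.42, adjusted p = 0.00041). uNW_003565415.1_73539_74047, on the same scaffold, was at 2.48, 0 and 3.24 in LQ, against 89.5, 181 and 201 in LW (log2 -2.95, SE 0.34, adjusted p = 0.000407). uNW_003566045.1_104220_104817 was at 10.3, 6.21 and 3.20 in LQ, against 99.2, 204 and 211 in LW (log2 -2.79, SE 0.36, adjusted p = 0.000898). uNW_003570464.1_639_925 was at 6.53, 27.6 and 0 in LQ, against 136, 259 and 256 in LW (log2 -2.97, SE 0.40, adjusted p = 0.00107). In each of them LW1 was the lowest LW library, and the early libraries of both castes were above the MQ ones. For uNW_003565415.1_68987_69283 the early values were 48.9, 161 and 93.1 in EQ and 153, 116 and 47.8 in EW, and the mid values were 13.1, 18.6 and 0 in MQ and 43.3 and 19.4 in MW. In this member every mid library was thus below every early one, and levels were high again only in LW. The fall from EQ to MQ passed the test in each of these members (adjusted p between 0.00782 and 0.0315), but was lost with the colony block. The fall from EW to MW passed in none of them (adjusted p between 0.157 and 0.606). For uNW_003570464.1_639_925 the MW libraries, at 51.0 and 50.2, lay within the early range.

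uNW_003568413.1_1_221 followed another course. It was at 118, 131 and 112 in EQ, against 87.1, 91.1 and 85.6 in EW, and was then at 95.6, 127 and 77.1 in MQ, against 237 and 199 in MW (log2 -1.01, SE 0.20, adjusted p = 0.0108). Later it was at 71.4, 89.9 and 135 in LQ, against 217, 254 and 219.6 in LW (log2 -1.11, SE 0.18, adjusted p = 0.00439). The castes were apart at all 3 stages, and the sides were exchanged between the early stage, where the difference missed the test (adjusted p = 0.88), and the later ones. The mid call was lost without MW2 or MW3 (largest adjusted p 0.116).

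**Figure D4:**
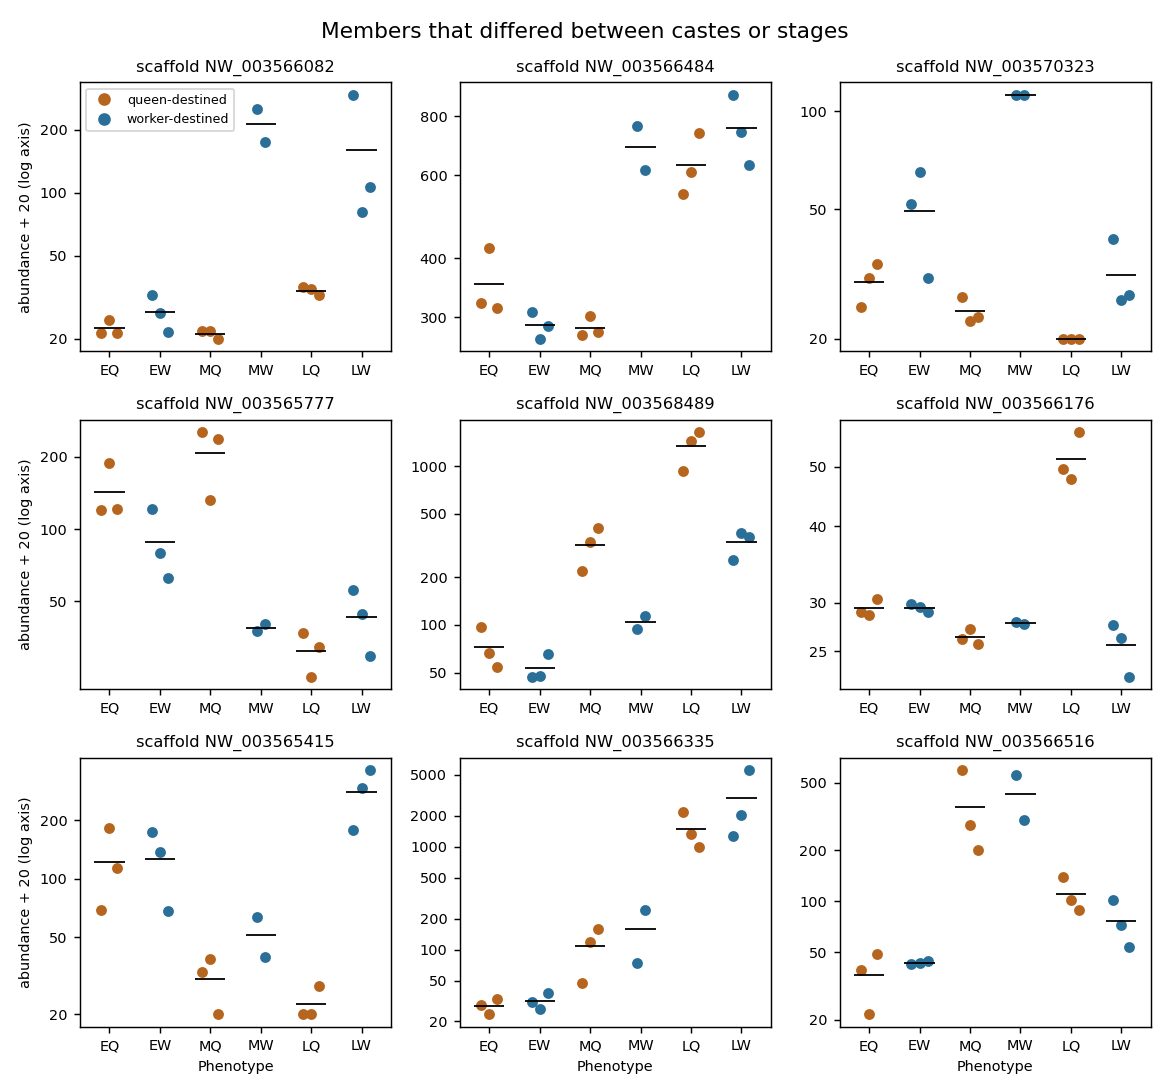
Normalised abundance plus 20 (vertical axis, log scale) of 9 members in the 6 phenotypes (horizontal axis), with a point for each library and a line at the mean. For uNW_003566082.1_14813_15171 the MW libraries lie at 231 and 155 and the MQ libraries between 0 and 1.83, and for uNW_003566176.1_376388_378257 the LQ libraries alone are raised.

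The caste difference itself was compared between stages by the interaction term of the limma fit. For mid against early no member moved to the queen side (0.229% of all features) and 14 moved to the worker side (0.182% of all features, and 0.412% in either direction). For late against mid 26 members moved to the queen side (1.42% of all features) and 12 to the worker side (1.05% of all features, and 2.47% in either direction). These counts rested on few libraries. The count of 14 for mid against early was 0 without EQ3, EW1, EW2, MQ4 or MW2, 3 without EQ2, 4 without MW3, 6 without EQ1, 7 without LQ2, 9 without MQ1, 42 without EW3, 61 without LW1 and 162 without MQ2. The count of 38 for late against mid was 3 without MW3, 5 without MW2, 13 without MQ4, 18 without LW2, 19 without LQ1 or LW3, 21 without MQ1, 99 without LW1 and 135 without MQ2. With the colony as a block the counts were 7 and 15.

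In queen-destined larvae more members were called between stages than between castes. The stage comparisons below that share MQ or MW libraries are given side by side with no comparison between them. Between the early and the mid stage, 48 members were higher in MQ (10.2% of all features) and 332 were higher in EQ (7.62% of all features), which are 1.95% and 13.5% of the members. The annotated features on unplaced scaffolds went the other way, with 185 higher in MQ and 81 higher in EQ. Unannotated transcripts on chromosomes went the way of the members, with 96 higher in MQ and 304 higher in EQ. The median log2 difference was -0.17 over members, 0.11 over annotated features on unplaced scaffolds and 0.05 over all features. With the colony as a block, the fit that pairs same-colony libraries, 24 members were higher in MQ and 155 in EQ. The count of 380 was 189 without EQ3 and 200 without MQ4.

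Among those higher in MQ than EQ were both neighbours on NW_003566516.1. uNW_003566516.1_1209_1521 was at 19.3, 1.53 and 29.1 in EQ, 574, 263 and 180.4 in MQ and 119.9, 82.3 and 68.6 in LQ, a log2 difference of 3.22 (SE 0.40, adjusted p = 0.000264) for MQ over EQ. In worker-destined larvae it was at 22.4, 23.5 and 24.5 in EW, 536 and 281 in MW and 82.4, 52.2 and 34.1 in LW (log2 3.23, SE 0.44, adjusted p = 0.00131 for MW over EW). It thus peaked at the mid stage in both castes, with the castes overlapping at every stage. uNW_003566516.1_1990_2234 had the same course, with 18.6, 12.7 and 7.94 in EQ, 421, 173 and 177 in MQ and 93.8, 71.6 and 57.9 in LQ.

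Among those lower in MQ than EQ, uNW_003566402.1_16205_16626, which lies 794 bp from an annotated feature, was at 59.8, 38.5 and 4.83 in MQ, against 225, 307 and 819 in EQ (log2 -3.06, SE 0.49, adjusted p = 0.00134). In worker-destined larvae it was at 205 and 324 in MW and at 485, 265 and 657 in EW, so these ranges overlapped and the MW libraries were above all MQ libraries (log2 -2.51 for MQ over MW, SE 0.54, adjusted p = 0.016). uNW_003570251.1_1_205 behaved alike, with 33.1, 48.2 and 10.4 in MQ, against 152, 248 and 735 in EQ (log2 -2.77, SE 0.54, adjusted p = 0.00421). uNW_003566135.1_2270290_2271319 was at 131, 64.0 and 55.1 in MQ, against 564, 459 and 704 in EQ (log2 -2.58, SE 0.63, adjusted p = 0.0141), and uNW_003566576.1_1_2240 was at 199, 102 and 67.3 in MQ, against 848, 586 and 886 in EQ (log2 -2.56, SE 0.64, adjusted p = 0.0161). The caste difference of uNW_003566402.1_16205_16626 lost its call without MQ4, MW2 or MW3, and the stage calls of uNW_003566135.1_2270290_2271319 and uNW_003566576.1_1_2240 were lost without EQ3 or MQ4. With the colony block the calls of uNW_003566135.1_2270290_2271319 (adjusted p = 0.0965) and uNW_003566576.1_1_2240 (adjusted p = 0.11) were lost.

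In worker-destined larvae between the early and the mid stage the balance was the opposite, with 102 members higher in MW (1.92% of all features) and 33 higher in EW (1.74% of all features, and 3.66% in either direction), which are 4.14% and 1.34% of the members. Among annotated features on unplaced scaffolds 21 were higher in MW and 22 in EW, and among unannotated transcripts on chromosomes 37 and 72. The median log2 difference was -0.02 over members, -0.01 over annotated features on unplaced scaffolds and -0.02 over all features. The count of 135 was 21 without MW2, 35 without MW3, 56 without EW2 and 82 without EW1. This comparison and that of MQ with EQ share no libraries: 17 members were higher in both EQ and EW than at the mid stage, which are 5.12% of the 332 and 51.5% of the 33, and 10 were higher in both MQ and MW, which are 20.8% of the 48 and 9.8% of the 102.

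The members that rose most in MW over EW included uNW_003566109.1_182735_182941 (446 and 245 in MW, against 19.2, 7.17 and 10.8 in EW, log2 3.46, SE 0.56, adjusted p = 0.00415) and uNW_003566532.1_6054_6308 (log2 3.09, SE 0.59, adjusted p = 0.0108), both described above for their caste difference. uNW_003566082.1_14813_15171 rose as well (log2 2.99, SE 0.38, adjusted p = 0.000759). Among those that fell, uNW_003565485.1_7968_8894, which lies within 810 bp of an annotated feature, was at 517 and 668 in MW, against 1999, 1862 and 2504 in EW (log2 -1.81, SE 0.34, adjusted p = 0.0107). In queen-destined larvae it was at 1927, 1709 and 2254 in EQ, 924, 1093 and 649 in MQ and 311, 252 and 203 in LQ, so it fell at each stage there, although the call for MQ over EQ was lost with the colony block and without EQ3 or MQ4. uNW_003566457.1_469871_470482 was at 22.6 and 15.4 in MW, against 61.8, 66.7 and 60.2 in EW (log2 -1.09, SE 0.18, adjusted p = 0.00548), and was at 21.4, 14.6 and 14.6 in MQ, against 56.2, 43.8 and 76.1 in EQ. uNW_003566181.1_71_2067 was at 186 and 183 in MW, against 423, 436 and 465 in EW (log2 -1.17, SE 0.25, adjusted p = 0.0212), and uNW_003569707.1_46_541 was at 62.5 and 59.8 in MW, against 152, 204 and 202 in EW (log2 -1.33, SE 0.26, adjusted p = 0.0131). Of these calls for MW over EW, only that of uNW_003566082.1_14813_15171 was kept whichever library was left out. Those of uNW_003566109.1_182735_182941, uNW_003566532.1_6054_6308, uNW_003565485.1_7968_8894, uNW_003566181.1_71_2067 and uNW_003569707.1_46_541 were lost without MW2, and those of the last 4 of them and of uNW_003566457.1_469871_470482 without MW3. The call of uNW_003566181.1_71_2067 was lost without any EW library as well, and that of uNW_003569707.1_46_541 without EW2 (largest adjusted p 0.151 and 0.108).

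Between the mid and the late stage more members fell than rose in both castes. In queen-destined larvae 247 members were higher in LQ (20.5% of all features) and 463 were higher in MQ (18.6% of all features), which are 10.0% and 18.8% of the members, and the annotated features on unplaced scaffolds had 297 higher in LQ and 220 higher in MQ. In worker-destined larvae 93 members were higher in LW (14.5% of all features) and 369 were higher in MW (10.6% of all features), which are 3.77% and 15.0% of the members, and the annotated features had 233 higher in LW and 107 higher in MW. Unannotated transcripts on chromosomes fell more often than they rose too. Of these 310 were higher in LQ and 509 in MQ, and 164 were higher in LW and 415 in MW. The median log2 differences were -0.15 over members, 0.02 over annotated features on unplaced scaffolds and -0.01 over all features for LQ over MQ, and -0.21, 0.06 and 0.01 for LW over MW. The count of 462 in worker-destined larvae was 96 without MW2, 138 without MW3, 172 without LW3 and 283 without LW2. The 2 comparisons share no libraries, and 172 members were higher at the mid stage in both castes (37.1% of the 463 and 46.6% of the 369), while 70 were higher at the late stage in both (28.3% of the 247 and 75.3% of the 93).

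The largest late increase in both castes was in uNW_003566335.1_414_901. It was at 8.85, 3.42 and 13.3 in EQ, 27.2, 98.6 and 139 in MQ and 2148, 1314 and 971 in LQ, with a log2 difference of 3.88 (SE 0.57, adjusted p = 0.000178) for LQ over MQ. In worker-destined larvae it was at 10.7, 6.45 and 18.0 in EW, 54.5 and 220.4 in MW and 1259, 2017 and 5525 in LW, with a log2 difference of 4.19 (SE 0.63, adjusted p = 0.000938) for LW over MW. The castes overlapped at every stage. Its rise in MQ over EQ (log2 1.77, adjusted p = 0.0461) was lost with the colony block (adjusted p = 0.124) and without any EQ or EW library, MQ2, MQ4, LQ2, LQ4 or LW2.

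uNW_003566311.1_6344_6552, uNW_003567230.1_479_811 and uNW_003566709.1_1_220 had their lowest levels at the mid stage in queen-destined larvae and their highest levels at the late stage in both castes. uNW_003567230.1_479_811 was at 187, 184 and 259.6 in EQ, 121, 95.8 and 77.1 in MQ and 1175, 735 and 904 in LQ, a log2 difference of 3.01 (SE 0.21, adjusted p = 5.67e-07) for LQ over MQ. In worker-destined larvae uNW_003567230.1_479_811 was at 135, 139.8 and 141 in EW, 187 and 169.7 in MW and 935, 1207 and 1578 in LW (log2 2.64, SE 0.23, adjusted p = 1.71e-05 for LW over MW). Late values overlapped between the castes, and mid values were apart without passing the test (adjusted p = 0.0577). uNW_003566311.1_6344_6552 was at 1498, 903 and 1193 in LQ and 1216, 1409 and 2169 in LW, against 175, 139 and 107 in MQ and 242 and 207 in MW.

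uNW_003570454.1_1268_1590 and uNW_003569957.1_1_607 rose in LQ over MQ and were higher in LQ than in LW. uNW_003570454.1_1268_1590 was at 376, 328 and 437 in MQ and 2908, 5907 and 4255 in LQ (log2 3.40, SE 0.34, adjusted p = 1.05e-05 for LQ over MQ), and at 362 and 428 in MW and 1084, 1342 and 1971 in LW. Its LQ libraries were above all LW libraries (log2 1.54, SE 0.34, adjusted p = 0.0221), although the change of the caste difference between these stages did not pass the test (adjusted p = 0.114). uNW_003569957.1_1_607 was at 3355, 7641 and 4708 in LQ, against 1538, 1880.3 and 2492 in LW (log2 1.35, SE 0.35, adjusted p = 0.0461). The late caste call of uNW_003570454.1_1268_1590 was lost without LQ2, LQ4, LW1 or LW2, and that of uNW_003569957.1_1_607 was kept only without EQ1, EQ3, MQ2, LQ1 or LW3.

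Among the members that fell, several kept a high value in LW1. uNW_003566133.1_1_1606 was at 3440.0, 1987 and 3735 in EQ, 1035, 644 and 411 in MQ and 60.7, 65.0 and 26.4 in LQ (log2 -3.30, SE 0.80, adjusted p = 0.00552 for LQ over MQ). In worker-destined larvae it was at 1556, 1356 and 3939 in EW, 1049 and 1579 in MW and 1280.5, 71.4 and 81.2 in LW. LW1 thus stayed at the level of MW, and the other LW libraries were near those of LQ (adjusted p = 0.0552 for LW over MW). The same split was seen in uNW_003566135.1_2270290_2271319, at 202, 6.61 and 7.29 in LW1, LW2 and LW3, in uNW_003566576.1_1_2240, at 281, 21 and 16.9, and in uNW_003565438.1_175612_176214, at 111, 16.5 and 24.9. In uNW_003569043.1_2_274 both LW1 (71.9) and MQ1 (462) stood above the other libraries of their phenotype, which were at 13.3 and 15.4 in LW and at 66.0 and 15.4 in MQ. The course of uNW_003568892.1_1_1085 was uneven in another way, at 339.9 and 25.7 in MW and 367, 1892 and 302 in LW, while it rose in queen-destined larvae to 687, 461 and 436 in LQ, against 21, 49.0 and 29.5 in MQ (log2 3.37, SE 0.79, adjusted p = 0.00456).

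For 232 of the 2464 members the names of the best sequence matches were legible in the study's annotation. Their list was ordered by the early difference of EQ over EW, so that all 232 were higher in EQ on average. For these match classes comparisons with EQ or EW are therefore left out, and early values are given as levels only. The mid and late libraries did not order the list, although most of them came from the same colonies as the early ones. Members with a ribosomal RNA match were set apart first. A member was then counted as matching a mobile element if any of its listed matches named one, even where the first match did not. Next came members whose first match was an mRNA that at least 4 members, before this sorting, had as first match. The classes held 65 members with a mobile element match, 51 that share an mRNA match, 55 with other matches, 57 without a match and 4 with ribosomal RNA. Members that match the same sequence may share reads, since reads that fit several places were included in the authors' counts, and are not independent.

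The members that match mobile elements leaned to MW among mid larvae. By limma 1 was higher in MQ and 17 in MW, with a median log2 difference of -0.56, against -0.14 over all members. These are 1.54% and 26.2% of them, against 4.72% and 3.31% of all features. In LW over MW 1 rose (1.54%, against 14.5% of all features) and 18 fell (27.7%, against 10.6% of all features). This comparison shares the MW libraries with the mid one. In LQ over MQ 6 of these members rose (9.23%, against 20.5% of all features) and 8 fell (12.3%, against 18.6% of all features). Their summed abundance was 27526, 42203 and 29330 in MQ1, MQ2 and MQ4, against 56157 and 51737 in MW2 and MW3. All MQ libraries were thus below both MW libraries in the sum, with MQ2 the nearest. The most abundant of them, uNW_003566388.1_4181_4769, was at 9078, 10843 and 8744 in EQ, 2965, 4879 and 3241 in MQ and 4879, 4262 and 3509 in LQ, and at 8139.9, 8269 and 6591 in EW, 6217 and 5378 in MW and 4087, 3187 and 2238 in LW. Its mid difference between castes did not pass the test (log2 -0.68, adjusted p = 0.121), although the ranges were apart. uNW_003567672.1_1_201 and uNW_003566034.1_3072_3456 had the same order, at 3034, 4037 and 2982 in MQ against 5473 and 4366 in MW and at 2017, 3509 and 2090.2 in MQ against 3624 and 3862 in MW.

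The members that match the mRNA of the protein Elbow, a zinc finger protein of Drosophila tracheal and appendage development, moved together in the other direction. There were 20 of them on 19 scaffolds. At the mid stage 7 were higher in MQ (35%, against 4.72% of all features) and none in MW (3.31% of all features), with a median log2 difference of 0.43. Other classes of that list also had positive mid medians. These were 0.32 for Jumonji matches, 0.31 for matches of a DC-STAMP domain protein, 0.28 for other matches, 0.22 without a match and 1.40 for ribosomal RNA. Of the Elbow members none rose in LQ over MQ and 18 fell (90%, against 18.6% of all features), and in LW over MW none passed in either direction. Between LQ and LW none passed either (3.21% of all features were higher in LQ and 1.34% in LW). A group of 3 members matches an intraflagellar transport protein 122 homolog, a part of the transport system of cilia. Any other member with this first match also had a mobile element match and was counted there, so these classes are not separate. The group was lower in MQ than in MW, as most members that match mobile elements were. Among them uNW_003566528.1_1_230 was at 749, 1118 and 1219 in MQ, against 1788 and 1692 in MW (log2 -0.78, SE 0.19, adjusted p = 0.0285), and at 1918, 1390.3 and 1475 in LQ, against 993, 906 and 783 in LW (log2 0.81, SE 0.17, adjusted p = 0.0174). The side of the castes was thus exchanged between these stages, and both ranges were apart. The same exchange was seen in uNW_003568548.1_1258_1479, which matches a mobile element. For uNW_003566528.1_1_230 the mid call was lost without MQ1, MW2 or MW3 and the late call without LQ1. The other members of that group, uNW_003565443.1_501827_502074 and uNW_003566109.1_69687_69981, were at 1428, 3694 and 2348 and at 1442, 2629 and 1799 in MQ, against 4037 and 4070.3 and 2879.8 and 2879.8 in MW, with neither passing the test.

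**Figure D5:**
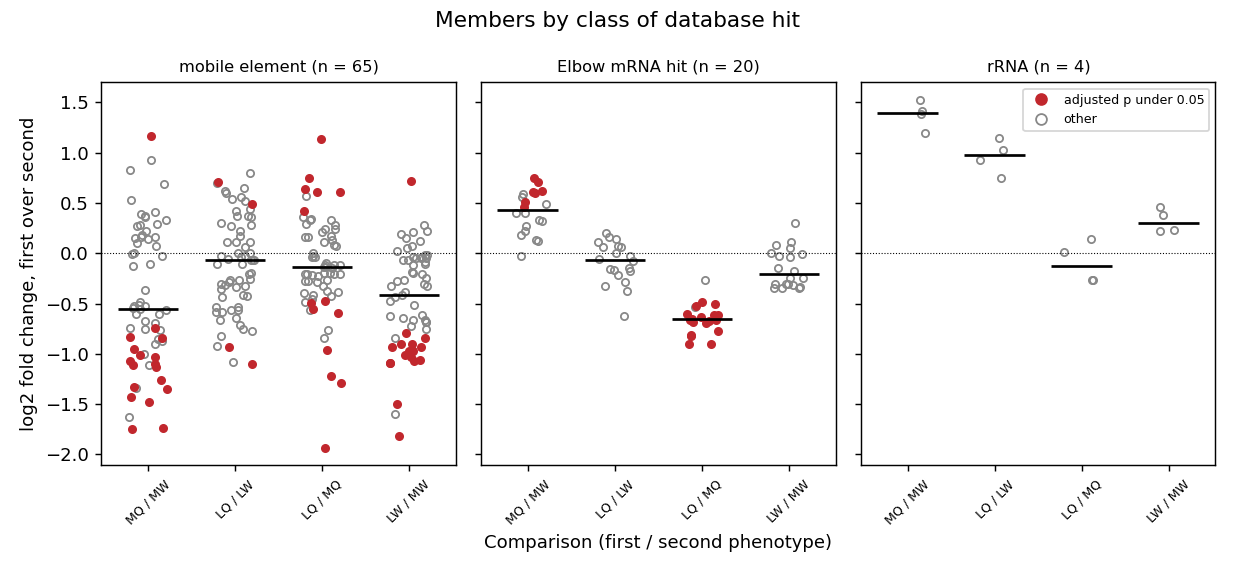
Log2 difference (vertical axis) of members matching mobile elements (65 members), Elbow mRNA (20 members) and ribosomal RNA (4 members) in the 4 comparisons without early libraries (horizontal axis), with a point for each member, red where the adjusted p was under 0.05, and a line at the median. At the mid stage the median was -0.56 for mobile elements and 0.43 for Elbow.

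The 4 members that match ribosomal RNA were abundant, with means between 1261 and 11792, and did not pass the test in any of these comparisons. uNW_003568370.1_1_1020 was at 7247, 22679 and 11634 in MQ, against 4427 and 5118 in MW (log2 1.38, SE 0.44, adjusted p = 0.0708), and at 20899, 10442 and 11823 in LQ, against 4731, 6064 and 8269 in LW (log2 1.15, SE 0.39, adjusted p = 0.115). uNW_003568038.1_32_1179 was at 5429.7, 25211 and 6968 in MQ, against 2977 and 3900.4 in MW, and uNW_003565415.1_29290_29613 was at 8688, 41224 and 12085 in MQ, against 5396 and 6890.0 in MW. uNW_003568028.1_18_521 was at 1089.6, 3322 and 1249 in MQ, against 721 and 705 in MW. In each of the 4, every MQ library was above both MW libraries and MQ2 was the highest MQ library, the library in which the abundant uneven members were low.

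Of the other members, uNW_003569916.1_5_599, whose match is the mRNA of omega-amidase NIT2, an enzyme of glutamine metabolism, was at 863, 836 and 821 in EQ, 1664, 1509 and 1965 in MQ and 3266, 4136 and 4201 in LQ, and it rose in LQ over MQ (log2 1.16, SE 0.17, adjusted p = 0.000198). In worker-destined larvae it was at 787, 759 and 770.4 in EW, 1170.4 and 1333 in MW and 1535, 2586 and 2529 in LW, and LQ was above LW (log2 0.83, SE 0.17, adjusted p = 0.0165), a call that was lost without LQ4. uNW_003566044.1_76209_76480, whose match is a laccase-4-like mRNA of a family of copper oxidases, was at 1394, 2439.6 and 1831 in MQ, against 2749 and 2995 in MW, and at 2936, 2744 and 2357 in LQ, against 1995, 1667 and 1206 in LW. Neither caste difference passed the test (adjusted p = 0.1 at the mid and 0.0541 at the late stage), although the ranges were apart at both. uNW_003569218.1_15_619, without a match, stayed between 1372 and 2634 in all 17 libraries, and uNW_003570374.1_4_272, also without a match, between 662 and 1225. Neither of these 2 passed the test between castes at any stage.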

How the data were processed

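mRNA-seq was done on pooled whole female larvae, 17 libraries being used here of 20. The authors left out MQ3 and LQ3 for low read counts and MW1 for poor clustering with its replicates. The deposited values are a signal made by the authors: reads were resampled to the size of LW1, matched to Bter_1.0 with PatMaN allowing 1 mismatch and including reads with several matches, scaled per length and quantile-normalised. Every library was thus cut to the same number of reads, but the deposited values are no longer counts, so no counting error is given. Unannotated transcripts had a length of at least 200 bp and were assembled from reads outside the annotated features. The authors filtered out features of either kind with low mean read counts or repeated zeros.

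From these values log2(abundance + 20) was fitted over all 14817 features with 1 mean per phenotype in limma 3.58.1 (R 4.3.3), with an intensity trend (11 residual and 2.35 prior degrees of freedom), and p-values were adjusted by Benjamini and Hochberg over all features, with a threshold of 0.05. The script was tested on simulated data. Summaries used Python 3.11.15, pandas 2.3.3 and numpy 2.4.6. Non-overlapping ranges and the offset fold change (limit 1, offset 20) followed the study.

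Members and lists were chosen with earlier results of these data known. Named members were those the study names, 2 fixed ones, the 10 with the highest mean, up to 12 abundant uneven ones, the 5 with the smallest p per stage and direction (3 where fewer than 3 were called), the 4 with the largest change per step and direction, the 3 with the smallest p per interaction, and those with ribosomal RNA or the highest means per match class. The study's NW_003568470.1_7_877 is listed without the leading u and is no member. Names of matches were read from the study's annotation, of which 1054 features could be read. Colonies were taken from the study's supplement. Same-colony queen-destined libraries deviated together from their group means (r between 0.21 and 0.49), and same-colony worker-destined libraries did so unevenly (r between -0.24 and 0.32), each over all features. Same-numbered libraries of different colonies ran between r = -0.41 (EW2 with LQ2) and 0.41 (EQ2 with LW2). Alternatives were other offsets (1, 50), no trend, library weights, a mean of at least 100, colony or replicate number as a block, colony as a random block, only the libraries of the stage, and each library left out.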

Additional observations from a re-analysis of the deposited data

Results flagged for a closer look

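Each value here is a change of the caste difference between stages (log2, queen-destined minus worker-destined larvae, later stage minus earlier stage) that passed the interaction test of limma at an adjusted p under 0.05, for a member described in the report or here. No explanation was tested.

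For mid against early larvae the difference moved to the worker side in each case, by -1.54 for uNW_003566484.1_500_835, -3.07 for uNW_003566082.1_14813_15171, -1.28 for uNW_003566392.1_117210_118602, -1.38 for uNW_003568413.1_1_221, -1.72 for uNW_003565443.1_987427_987816 and -1.47 for uNW_003568548.1_1258_1479. Of these, uNW_003566484.1_500_835, uNW_003568413.1_1_221, uNW_003565443.1_987427_987816 and uNW_003568548.1_1258_1479 stand in the list of matches that was ordered by a higher EQ than EW, the side from which they moved. For late against mid larvae it moved to the queen side by 1.01 for uNW_003566484.1_500_835, 0.88 for uNW_003566392.1_117210_118602, 1.59 for uNW_003570323.1_319_600, 1.09 for uNW_003566176.1_376388_378257, 1.28 for uNW_003565656.1_908_1913, 1.43 for uNW_003570215.1_3_519, 1.17 for uNW_003565443.1_987427_987816, 1.67 for uNW_003568548.1_1258_1479, 1.59 for uNW_003566528.1_1_230 and 1.38 for uNW_003566044.1_76209_76480. For late against mid it moved to the worker side by -2.80 for uNW_003565777.1_231_968, -0.64 for uNW_003565543.1_13688_14254, -0.97 for uNW_003567127.1_3_1246, -1.26 for uNW_003568024.1_1_1630, -2.68 for uNW_003565415.1_73539_74047, -2.81 for uNW_003565415.1_68987_69283, -2.37 for uNW_003566045.1_104220_104817 and -0.95 for uNW_003565823.1_124_421. Only the late against mid changes of uNW_003566176.1_376388_378257, uNW_003565823.1_124_421 and uNW_003566528.1_1_230 were called whichever library was left out, and that of uNW_003568548.1_1258_1479 was lost only without MW3. With the colony block the mid against early changes of uNW_003566082.1_14813_15171, uNW_003566392.1_117210_118602 and uNW_003566484.1_500_835 were called, and so were the late against mid changes of uNW_003565777.1_231_968, uNW_003565823.1_124_421, uNW_003566176.1_376388_378257, uNW_003566392.1_117210_118602, uNW_003566484.1_500_835 and uNW_003568548.1_1258_1479. The others were lost.

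The castes changed sides between these stages in uNW_003568548.1_1258_1479. It was at 571, 960.3 and 865 in MQ, against 1415 and 1659 in MW, and at 1284, 1193 and 1132 in LQ, against 875, 744 and 587 in LW. uNW_003565823.1_124_421 was at 535, 685 and 569.6 in MQ, against 385 and 371 in MW, and at 329, 312 and 286 in LQ, against 377, 400.3 and 402 in LW. uNW_003565443.1_987427_987816 was at 252, 283 and 187 in MQ, against 742 and 579 in MW, whereas it was at 345, 409.5 and 339 in EQ and at 332, 247 and 285 in EW.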

How the results depend on the processing

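Of 81 tests of named members, leaving out a library kept 1294 results on their side of the threshold, lost 81 and gained 2, and the other alternatives kept 626, lost 33 and gained 5. None reversed. The cause of these shifts was not tested. Counts of members called were, with library weights, 9 (early), 509 (mid), 444 (late), 431 (EW to MW), 910 (MW to LW), and 420 and 236 for the caste difference mid against early and late against mid. With only members of a mean of at least 100 they were 0 (early), 30 (late), 84 (EW to MW) and 20 (late against mid), and ranges were apart for 171 (early) and 259 (late). Without the intensity trend the early count was 0. With only the libraries of a stage the counts were 0 (early), 13 (mid) and 5 (late). With an offset of 1 the count for mid against early was 6. Rules of at least 1000 in the highest library took 25 abundant uneven members, and 39 with a ratio of at least 4.

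With colony as the replicate block, which pairs same-colony libraries, 179 members were called for EQ to MQ, and 7 and 15 for the caste difference mid against early and late against mid. As a random block colony gave 214 (EW to MW), 73 (mid against early) and 88 (late against mid). A replicate block by number, which pairs no colony across castes, gave 0 (early) and 101 (mid) for the castes.

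Leaving out 1 library at a time, the counts of members called ran between 0 and 2 (early), 35 and 348 (mid), 27 and 114 (late), 189 and 418 (EQ to MQ), 515 and 735 (MQ to LQ), 21 and 183 (EW to MW), 96 and 629 (MW to LW), 0 and 162 (mid against early) and 3 and 135 (late against mid). Ranges were apart for 435 to 787 (early), 1352 to 1619 (mid) and 558 to 917 (late), and the offset fold change passed 1 for 0 to 6, 62 to 176 and 12 to 27. With fewer libraries ranges part more easily. The members' mean share ran between 18.3% and 26.0% in EQ, 24.0% and 31.9% in EW, 25.2% and 31.9% in MQ, 14.8% and 16.1% in MW, 15.5% and 19.6% in LQ and 14.5% and 19.4% in LW, and without the 10 most abundant members it was 14.5% in EW, 12.7% in MQ, 12.6% in MW, 11.0% in LQ and 10.6% in LW.

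The files carry no read depth, so sampling error could not be separated from variation between colonies, and quantile normalisation sets each value by its rank within the library. MW had 2 libraries, and castes differed in colony as well as in rearing.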
